A study of Mus musculus with 14 samples.

Results

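Gene expression at day 5 was compared with day 3 in MC3T3-E1 cells labelled as carrying a knockdown of MACF1. MC3T3-E1 is a mouse line of osteoblast precursors, and MACF1 is a giant linker between actin filaments and microtubules. The genes described are those with at least 10 counts in at least 2 of the 4 libraries of these days and this condition. They number 12453 of the 24346 genes in the deposited table, and the other 11893 lay below that minimum. Of the 12453 genes, 11568 are protein coding, 223 are lincRNAs, 151 are antisense RNAs and 225 are pseudogenes. The series holds 14 libraries of polyadenylated RNA. The libraries labelled knockdown and those labelled control cover days 0, 3, 5 and 10, with 2 libraries per condition at days 0, 3 and 5 and 1 per condition at day 10. From what event the days are counted, how the knockdown was made and whether the cells are 1 clone is not given in the sources used here. All cells share the line, and no treatment is named. The design text calls the pairs biological replicates without saying whether they were separate cultures, so p-values reflect only how far these libraries spread, and that spread may be technical.

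Osteoblasts mature through an order of stages. Dividing precursors leave the cell cycle, lay down a collagen matrix, and then express the enzymes and acidic glycoproteins with which that matrix is mineralised. Runx2 and Sp7 are the transcription factors that commit cells to this path, and alkaline phosphatase, bone sialoprotein and osteocalcin are products of its later part. Wnt signalling through beta-catenin is known to further this path in bone. The comparison of day 5 with day 3 asks which of these programmes moved in the later step of the cells labelled knockdown, and the comparison with control asks whether that step differed between the conditions.

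The libraries labelled knockdown held 23301514 and 14499406 counts at day 5, against 19094812 and 13096527 counts at day 3. Macf1 (minus strand of chromosome 4, 123349633 to 123684360, GRCm38) was at 168 and 181 CPM at day 5, against 171 and 169 CPM at day 3, where CPM relates a gene's counts to its library's total after TMM scaling. Control had 176 and 205 CPM at day 5, and at day 3 it had 189 and 56.0 CPM, so at neither day did both libraries labelled knockdown lie below both of control. The groups are therefore called by their labels. Control day 3 replicate 2 stood apart, with 8044687 counts and 19.96% of them on cytoplasmic ribosomal protein genes, against 5.75% to 11.43% in the other 13 libraries. It does not enter the comparison of day 5 with day 3, and the comparison with control is given with and without it. Without it, control day 3 is 1 library with no replicate. Osteoblast markers were present in all 4 libraries: Col1a1, the main collagen chain of bone, was at 6029 and 6244 CPM at day 5, against 5176 and 5238 CPM at day 3. Of the markers of other cell types, Col2a1, the collagen of cartilage, was at 159 and 176 CPM at day 5, against 185 and 200 CPM at day 3. Of 12 macrophage and osteoclast markers 10 were under 1 CPM in all 4 libraries, as were 8 of 9 endothelial, 7 of 9 adipocyte, 5 of 7 muscle, 5 of 12 chondrocyte and 4 of 10 fibroblast and tendon markers. The summed level of the chondrocyte markers was 273 and 253 CPM at day 5, against 302 and 280 CPM at day 3, mostly from Col2a1 and Sox9, while Acan was at 0. The fibroblast and tendon markers summed to 267 and 275 CPM at day 5, against 268 and 275 CPM at day 3, mostly from Pdgfra and Cd34, while Thbs4 was at 0. The macrophage and osteoclast markers summed to 57.4 and 64.3 CPM at day 5, against 62.3 and 67.9 CPM at day 3, mostly from Mmp9, while Dcstamp was at 0. Muscle markers summed to 10.98 to 12.16 CPM at day 5, against 9.44 to 9.45 CPM at day 3, adipocyte markers to 6.09 to 6.33 CPM, against 3.17 to 4.44 CPM, and endothelial markers to 1.34 to 1.61 CPM, against 1.48 to 1.96 CPM. Adipoq, Pax7, Cdh5 and Tie1 were at 0. The part of these genes in the results was not tested.

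Between day 3 and day 5, 22 genes rose and 0 fell. Calls rest on an adjusted p under 0.05 (edgeR, quasi-likelihood, adjusted by Benjamini and Hochberg), and 22 genes are 0.177% of those tested. At an unadjusted p under 0.05 there were 574 genes higher and 536 lower, DESeq2 called 57 higher and 19 lower, and limma on the deposited RPKM values called 5 higher and 0 lower. The median log2 fold change over all genes was −0.002. Of the 22 genes 14 differed by more than 2-fold. In order of size they include Car9, Mgarp, Ibsp, H19, Tnfrsf19, Igf2, Pth1r, Spry1, Ppp1r3c, Akap6, Ramp1, Mmp13, Alpl, Itgbl1, Akap12, Mif, Igfbp5, Lum, Pgk1, Lbh and Cp. Both libraries of day 5 lay above both of day 3 for each of the 22. Over all genes tested, 20.3% had both libraries of day 5 above both of day 3, and 17.3% had both below.

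Libraries with the same replicate number deviated from their day's mean in the same genes, so a second fit took the number as a block. It is called the blocked fit below. Across the genes tested, the deviations of day 3 and day 5 correlated at 0.448, a description over genes that are not independent. No source says what the number marks, and the libraries numbered 1 are deeper than those numbered 2 at each day. Rpl37, a protein of the large ribosomal subunit, shows the pattern. It was at 295 CPM in replicate 1 and 588 CPM in replicate 2 at day 5, against 252 CPM in replicate 1 and 472 CPM in replicate 2 at day 3. The days overlap, yet each number was higher at day 5 than at day 3. The blocked fit called 719 genes higher (5.77%) and 796 lower (6.39%), with a median absolute log2 fold change of 0.31 among the called, and all 22 genes above were among the 719. Only 47 genes of the 719 and 5 of the 796 changed by more than 2-fold. The median standard error of a log2 fold change was 0.107 in the blocked fit and 0.149 without the block. The blocked fit leaves 2 residual degrees of freedom, against 3 without the block. Without each of the 4 libraries in turn it leaves 1, so the counts given for those fits are uncertain. In what follows "rose" and "fell" are kept for the calls without the block, and a gene that was called in the blocked fit alone is said to be higher or lower in the blocked fit. Counts given for the blocked fit include the genes that also rose without it. Each such count is to be read beside the 5.77% higher and 6.39% lower of all genes. Those shares belong to the blocked fit of all 7 libraries. Without 1 library fewer of all genes were called as well, so counts from those fits do not compare with these shares.

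**Figure D1:**
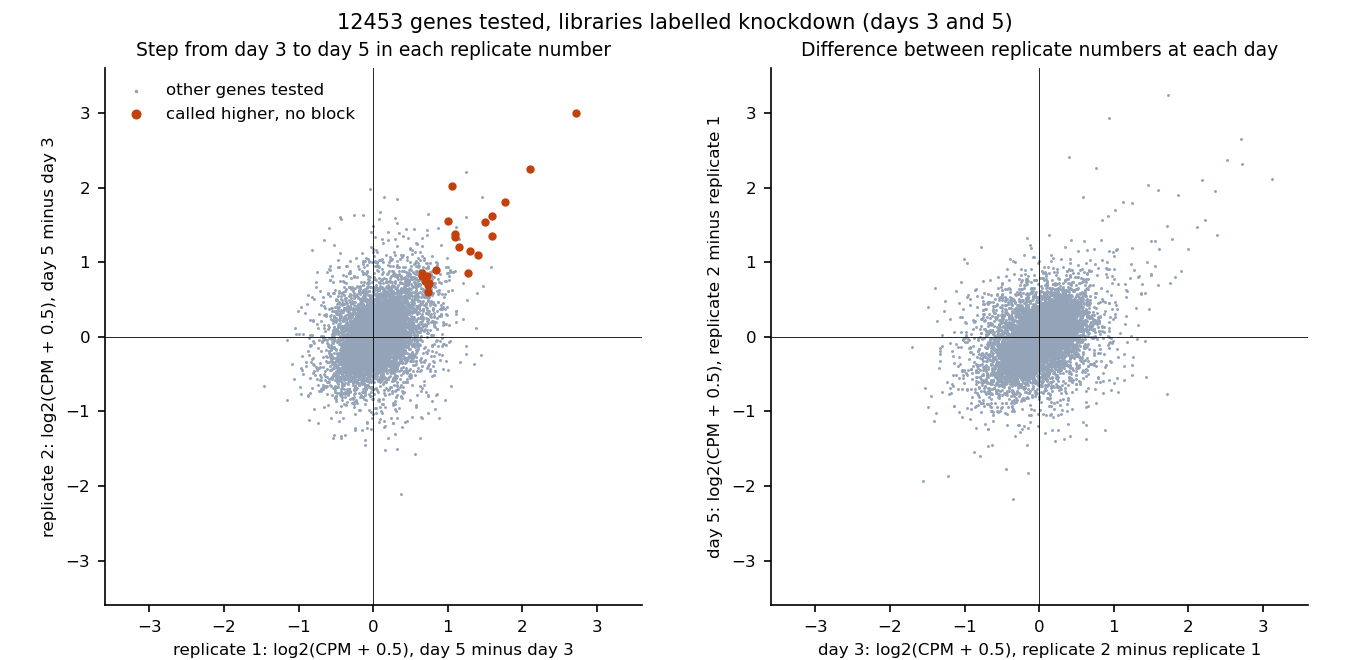
The left panel plots each gene's step from day 3 to day 5 in log2(CPM + 0.5), replicate 1 on the horizontal axis and replicate 2 on the vertical axis. The 22 genes called without the block, in orange, all lie in the upper right. The right panel plots replicate 2 minus replicate 1, day 3 on the horizontal axis and day 5 on the vertical axis, and its cloud leans along the diagonal (correlation across genes 0.448).

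Genes of the mature osteoblast were among the largest rises. Ibsp, which encodes bone sialoprotein, a mineral-binding glycoprotein of bone matrix, was at 396 and 349 CPM at day 5, against 91.8 and 73.2 CPM at day 3, a 4.47-fold rise (log2 fold change 2.16, SE 0.17, adjusted p = 0.00234). Alpl, the alkaline phosphatase that removes the mineralisation inhibitor pyrophosphate, was at 45.2 and 41.0 CPM at day 5, against 20.1 and 17.6 CPM at day 3 (log2 fold change 1.18, SE 0.13, adjusted p = 0.00996). Pth1r, the receptor of parathyroid hormone, was at 49.7 and 56.3 CPM at day 5, against 17.3 and 19.1 CPM at day 3 (log2 fold change 1.53, SE 0.15, adjusted p = 0.00571). The days did not overlap for any of the 3 genes. Ibsp and Pth1r passed without each of the 4 libraries in turn, with adjusted p up to 0.0139 and 0.0486. Alpl did not pass without day 5 replicate 1 (adjusted p = 0.0816) or without day 3 replicate 2 (0.116). All 3 were low at day 0, where Alpl had 0.22 and 0.21 CPM, Ibsp 1.46 and 2.71 CPM and Pth1r 0.87 and 1.46 CPM. At day 10, with 1 library, Ibsp stood at 123.5 CPM and Pth1r at 29.4 CPM, below day 5, and Alpl at 41.6 CPM.

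Of the 22 mature osteoblast genes tested, 3 rose, 0 fell, and 13 were higher (59.1%) and 0 lower in the blocked fit, against 5.77% and 6.39% of all genes. Their median log2 fold change was 0.27, against −0.002 over all genes. Without each of the 4 libraries in turn the blocked fit called 9 to 13 of them higher. Phospho1, a phosphatase that starts mineral in matrix vesicles, was at 21.6 and 23.9 CPM at day 5, against 13.0 and 11.8 CPM at day 3 (adjusted p = 0.0998, and 3.23e-06 in the blocked fit). Bglap, osteocalcin, was at 9.06 and 9.37 CPM at day 5, against 4.78 and 4.58 CPM at day 3 (adjusted p = 0.207, and 0.000106 in the blocked fit), and near-identical copies of this gene may share its reads. Sparc, osteonectin, was at 3046 and 3052 CPM at day 5, against 2093 and 2087 CPM at day 3 (adjusted p = 0.137, and 2.44e-15 in the blocked fit). Col1a1 had a log2 fold change of 0.22 (adjusted p = 0.647, and 0.000462 in the blocked fit).

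The genes for 3 acidic glycoproteins of mineralised matrix lie close together on the plus strand of chromosome 5: Dmp1 (104202613 to 104214102), Ibsp (104299171 to 104311469) and Spp1 (104435118 to 104441050, GRCm38). Of these 3 only Ibsp rose. Dmp1, which osteocytes express, was at 75.2 and 65.1 CPM at day 5, against 62.6 and 51.5 CPM at day 3, a log2 fold change of 0.28 (adjusted p = 0.596, and 0.00139 in the blocked fit). Spp1, osteopontin, was at 2246 and 2121 CPM at day 5, against 2226 and 1999 CPM at day 3, and the days overlapped (log2 fold change 0.04, SE 0.12, adjusted p = 0.964). Phex, an endopeptidase of osteoblasts and osteocytes, also overlapped between the days, with 24.9 and 22.6 CPM at day 5, against 27.2 and 23.2 CPM at day 3.

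No regulator of the lineage rose or fell. Runx2 was at 127 and 107 CPM at day 5, against 109 and 90.5 CPM at day 3, and the days overlapped (log2 fold change 0.22, adjusted p = 0.706, and 0.00978 in the blocked fit). Sp7 was at 86.1 and 91.4 CPM at day 5, against 76.2 and 96.9 CPM at day 3 (log2 fold change 0.02, SE 0.13, adjusted p = 0.978). Of 21 osteoblast transcription factors tested, none rose or fell at the adjusted threshold, and their median log2 fold change was 0.10. In the blocked fit 2 were higher (9.52%) and 1 lower (4.76%), near the 5.77% and 6.39% of all genes. Of 9 osteocyte genes 1 was higher (11.1%) in the blocked fit, with a median of −0.01.

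**Figure D2:**
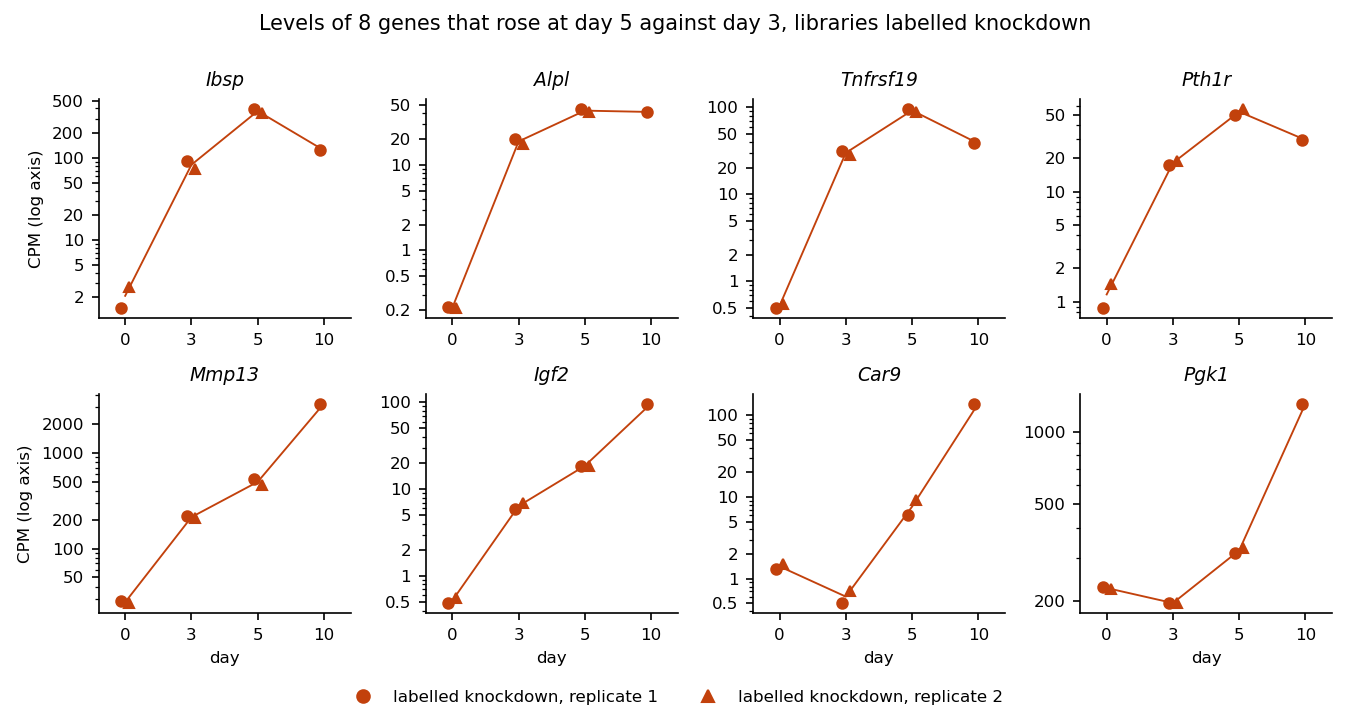
CPM of 8 genes that rose between day 3 and day 5, on log axes against the day (days not drawn to scale), in the 7 libraries labelled knockdown; circles are replicate 1, triangles replicate 2, and the line joins the means. In each panel both libraries of day 5 lie above both of day 3; at day 10 Mmp13 reached 3295 CPM and Pgk1 1308 CPM, while Ibsp stood at 123.5 CPM.

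Other rises were in Tnfrsf19, Ramp1, Spry1, Akap6 and Akap12. Tnfrsf19, one of the tumour necrosis factor receptors, listed among the targets of canonical Wnt signalling, was at 96.1 and 88.4 CPM at day 5, against 31.4 and 28.5 CPM at day 3 (log2 fold change 1.61, SE 0.11, adjusted p = 0.00148). It was at 0.49 and 0.56 CPM at day 0, and it passed without each of the 4 libraries in turn (adjusted p up to 0.0139). Ramp1, which pairs with the calcitonin receptor-like receptor to bind calcitonin gene-related peptide, was at 26.8 and 26.8 CPM at day 5, against 12.3 and 10.3 CPM at day 3 (log2 fold change 1.23, adjusted p = 0.0243). Spry1, a feedback inhibitor of receptor tyrosine kinases such as the FGF receptors, was at 9.94 and 12.2 CPM at day 5, against 4.37 and 4.37 CPM at day 3 (log2 fold change 1.32, adjusted p = 0.0407). Akap6 and Akap12, which anchor protein kinase A in the cell, had log2 fold changes of 1.29 (adjusted p = 0.0306) and 0.86 (adjusted p = 0.0247). The calls of Ramp1, Spry1, Akap6 and Akap12 were lost without any 1 of the 4 libraries.

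In the IGF system 3 of 14 tested members rose (median log2 fold change 0.28). In the blocked fit 7 were higher (50%) and 0 lower, against 5.77% and 6.39% of all genes. Igf2, a growth factor ligand, and H19, a long non-coding RNA, are imprinted neighbours on the minus strand of chromosome 7 (Igf2 142650766 to 142666816, H19 142575529 to 142578143, GRCm38). Igf2 was at 18.7 and 18.4 CPM at day 5, against 5.88 and 6.91 CPM at day 3 (log2 fold change 1.53, SE 0.14, adjusted p = 0.00476), and passed without each library in turn (adjusted p up to 0.0484). H19 was at 6.50 and 8.37 CPM at day 5, against 2.87 and 1.69 CPM at day 3 (log2 fold change 1.63, SE 0.23, adjusted p = 0.0396). It did not pass without day 5 replicate 1, day 5 replicate 2 or day 3 replicate 2 (adjusted p = 0.0732, 0.155 and 0.2). Their levels before day 3 differed: Igf2 had 0.49 and 0.56 CPM at day 0, and H19 had 6.50 and 6.73 CPM, above its day 3 values. At day 10 H19 reached 199.9 CPM and Igf2 96.7 CPM. In control H19 was at 545 and 443 CPM at day 5, against 26.9 and 23.4 CPM at day 3. The step in the libraries labelled knockdown minus that in control was −2.62 log2 units for H19 (14 libraries, adjusted p = 0.114). For Igf2 this difference was 0.21 (adjusted p = 0.771). With control day 3 replicate 2 set aside, the difference was −2.57 for H19 and −0.04 for Igf2. Control day 3 then rests on 1 library, so only these sizes are given. Igfbp5, a secreted IGF-binding protein of bone, was at 44.1 and 44.7 CPM at day 5, against 27.8 and 25.1 CPM at day 3 (log2 fold change 0.73, adjusted p = 0.0396, lost without any 1 of the 4 libraries, with adjusted p of 0.199 to 0.266). Igfbp4 was at 489 and 498 CPM at day 5, against 337 and 390 CPM at day 3 (adjusted p = 0.27, and 1.32e-10 in the blocked fit).

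Cp and Lbh, which are in none of the lists, also rose. Cp, ceruloplasmin, a secreted copper protein that oxidises iron, was at 244 and 233 CPM at day 5, against 146 and 153 CPM at day 3 (log2 fold change 0.66, SE 0.09, adjusted p = 0.0396). Lbh, a transcription cofactor, was at 276 and 280 CPM at day 5, against 166 and 173 CPM at day 3 (log2 fold change 0.70, SE 0.10, adjusted p = 0.0396), below the 332.5 and 367.8 CPM of day 0. Both calls were lost without any 1 of the 4 libraries.

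Among the proteases and matrix proteins, Mmp13 and Lum rose, and so did Itgbl1, an extracellular protein with integrin-like repeats, with 16.8 and 13.9 CPM at day 5, against 6.69 and 7.47 CPM at day 3 (adjusted p = 0.0396). The call of Itgbl1 was lost without any 1 of the 4 libraries, where its log2 fold change was 0.97 to 1.24. Mmp13, a collagenase of bone and cartilage, was at 537 and 462 CPM at day 5, against 218 and 209 CPM at day 3 (log2 fold change 1.21, SE 0.11, adjusted p = 0.00476). It missed the threshold without day 3 replicate 2 (adjusted p = 0.073). Its level had been 28.1 and 26.9 CPM at day 0 and was 3295 CPM at day 10. Lum, lumican, a proteoglycan that binds collagen fibrils, was at 216 and 207 CPM at day 5, against 129 and 126 CPM at day 3 (log2 fold change 0.72, adjusted p = 0.0309, lost without any 1 of the 4 libraries, with adjusted p up to 0.238). Of 23 matrix proteases and inhibitors tested, 1 rose, and 9 were higher and 0 lower in the blocked fit (5 to 6 higher without each library in turn), with a median log2 fold change of 0.16. Ctsk, a collagen-degrading cathepsin, was at 89.4 and 81.3 CPM at day 5, against 52.8 and 55.2 CPM at day 3 (adjusted p = 0.0508, and 4.15e-12 in the blocked fit). Mmp14, a membrane-bound collagenase, had 638 and 501 CPM at day 5, against 460 and 344 CPM at day 3 (adjusted p = 0.439, and 3.06e-13 in the blocked fit).

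Of 31 collagen chains tested, 0 rose or fell, with a median log2 fold change of 0.20. In the blocked fit 13 were higher (41.9%) and 1 lower (3.23%), against 5.77% and 6.39% of all genes. The count of higher chains was 3 to 12 without each of the 4 libraries in turn, with 3 without day 5 replicate 2 and 5 without day 3 replicate 2. Col5a1, a chain of the collagen that seeds fibrils, was at 438 and 512 CPM at day 5, against 365 and 392 CPM at day 3 (log2 fold change 0.31, adjusted p = 0.434, and 3.47e-06 in the blocked fit). Col24a1, a fibril collagen of bone, was at 12.7 and 14.9 CPM at day 5, against 7.59 and 7.61 CPM at day 3 (log2 fold change 0.84, adjusted p = 0.176, and 0.000127 in the blocked fit). Among 30 enzymes and chaperones of collagen, 7 were higher and 2 lower in the blocked fit. P4ha1, which hydroxylates collagen prolines, was at 265 and 279 CPM at day 5, against 188 and 190 CPM at day 3. Pcolce2, an enhancer of procollagen cleavage, went the other way, with 55.1 and 53.01 CPM at day 5, against 76.9 and 84.4 CPM at day 3 (adjusted p = 0.107 for P4ha1 and 0.0875 for Pcolce2, and 3.6e-13 and 1.65e-09 in the blocked fit). Of 43 proteoglycans and other matrix proteins, 1 rose, and 19 were higher and 6 lower in the blocked fit, with a median of 0.10. Npnt, nephronectin, an integrin ligand, had 1342 and 1531 CPM at day 5, against 907 and 935 CPM at day 3 (log2 fold change 0.63, adjusted p = 0.0958, and 1.04e-18 in the blocked fit).

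Genes that respond to low oxygen held the largest log2 fold change among the 22. Car9, a membrane carbonic anhydrase that is a known target of hypoxia-inducible factor, was at 6.08 and 9.10 CPM at day 5, against 0.50 and 0.70 CPM at day 3, a 12.4-fold rise (log2 fold change 3.64, SE 0.31, adjusted p = 0.00324). It passed without each of the 4 libraries in turn (adjusted p up to 0.0484) and had 10 and 10 counts at day 3. At day 0 it was at 1.30 and 1.53 CPM, and at day 10 at 138.5 CPM. Mgarp, a mitochondrial protein known to be induced by hypoxia, had 49 and 26 counts at day 5, against 5 and 2 counts at day 3, and its fold change rests on those few counts. Pgk1, a glycolytic kinase, was at 316 and 329 CPM at day 5, against 195.1 and 195.3 CPM at day 3 (log2 fold change 0.71, SE 0.10, adjusted p = 0.0323). Mif, a cytokine, was at 82.9 and 98.4 CPM at day 5, against 52.8 and 54.0 CPM at day 3 (log2 fold change 0.75, adjusted p = 0.0407). Ppp1r3c, which directs a phosphatase to glycogen, was at 17.5 and 14.5 CPM at day 5, against 6.29 and 6.55 CPM at day 3 (log2 fold change 1.32, adjusted p = 0.0309). Mgarp, Mif and Ppp1r3c are not in the list counted next. The calls of Mgarp, Pgk1, Mif and Ppp1r3c were lost without any 1 of the 4 libraries.

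Of the 33 glycolysis and hypoxia response genes tested, 2 rose, and 23 were higher and 0 lower in the blocked fit, against 5.77% and 6.39% of all genes. Their median log2 fold change was 0.30, and 17 to 19 were higher without each library in turn. Pdk1, which keeps pyruvate out of the mitochondrion, was at 47.3 and 39.6 CPM at day 5, against 24.3 and 27.3 CPM at day 3 (adjusted p = 0.0813, and 1.32e-10 in the blocked fit). Aldoa, aldolase A, was at 322 and 360 CPM at day 5, against 220 and 264 CPM at day 3 (adjusted p = 0.248, and 1.56e-12 in the blocked fit). Vegfa, the angiogenic ligand, was at 81.3 and 77.5 CPM at day 5, against 55.9 and 64.2 CPM at day 3 (adjusted p = 0.249, and 2.9e-06 in the blocked fit). The summed level of the list was 5001 and 5165 CPM at day 5, against 3956 and 4126 CPM at day 3, and at day 10 it was 14570 CPM.

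Because 23 of these 33 genes were higher in the blocked fit, their promoters were read for the letters ACGTG on either strand, the core of the element that hypoxia-inducible factor binds. These letters were added after the values were seen and include the CACGTG of E-boxes, and 31.7% of the mitotic and 25.6% of the replication windows described next held them too. In the RefSeq windows of GRCm38.p6, the 250 bases before each gene's start, 43.1% of the 51 windows of 33 listed genes held ACGTG, against 16.6% of all 32851 windows. The mature osteoblast genes were searched too. Of their 25 windows 12% held ACGTG, 16% ACCACA (14% of all windows) and 32% TATAAA (12.4% of all windows). Pgk1 is shown because its window holds 2 matches (capitals) and ends just before the annotated gene. The window is chrX:106186850-106187099 on the plus strand.
Pgk1: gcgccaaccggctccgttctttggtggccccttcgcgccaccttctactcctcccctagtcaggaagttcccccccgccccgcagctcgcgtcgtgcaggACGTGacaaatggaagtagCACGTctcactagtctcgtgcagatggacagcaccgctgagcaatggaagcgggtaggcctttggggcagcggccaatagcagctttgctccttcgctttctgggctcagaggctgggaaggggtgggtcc
A match describes the letters in the window and shows no binding.

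Cell division genes were lower at day 5 in the blocked fit nearly across the list. Of 46 mitotic genes tested, 0 rose or fell without the block, and 0 were higher and 41 lower in the blocked fit, against 5.77% and 6.39% of all genes. Their log2 fold changes had a median of −0.38, with 1 above 0 and 45 below, and 39 had both libraries of day 5 below both of day 3, against 17.3% of all genes. Without each of the 4 libraries in turn 31 to 38 were lower, and DESeq2 without the block called 4 lower. Ccna2, cyclin A2, was at 196 and 177 CPM at day 5, against 280 and 264 CPM at day 3 (log2 fold change −0.56, SE 0.10, adjusted p = 0.0998, and 3.61e-14 in the blocked fit). Kif11, a motor of the spindle, was at 189 and 171 CPM at day 5, against 262 and 246 CPM at day 3 (log2 fold change −0.51, adjusted p = 0.109, and 3.19e-12 in the blocked fit). Spc25, of the kinetochore's microtubule-binding complex, was at 130 and 117 CPM at day 5, against 191 and 159 CPM at day 3 (log2 fold change −0.52, adjusted p = 0.232, and 3.65e-11 in the blocked fit). Tpx2, a spindle assembly factor, was at 370 and 338 CPM at day 5, against 492 and 457 CPM at day 3 (log2 fold change −0.44, adjusted p = 0.212, and 5.05e-11 in the blocked fit). The mitotic genes summed to 4586 and 4334 CPM at day 0, then to 7363 and 6756 CPM at day 3, to 5648 and 5350 CPM at day 5 and to 1475 CPM at day 10, so day 5 lay between day 3 and day 10 and still above day 0. In RNA of whole cultures, fewer dividing cells and less of these RNAs per cell cannot be told apart.

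The genes of DNA replication were lower in the blocked fit as well. Of 41 tested, 0 rose or fell without the block, and 0 were higher and 28 lower in the blocked fit (14 to 18 without each library in turn), with a median log2 fold change of −0.30. Rrm2, the subunit of ribonucleotide reductase made in S phase, was at 50.8 and 58.8 CPM at day 5, against 81.3 and 92.0 CPM at day 3 (log2 fold change −0.67, SE 0.13, adjusted p = 0.107, and 4.42e-12 in the blocked fit). Mcm6, of the replicative helicase, was at 137 and 124 CPM at day 5, against 175 and 170 CPM at day 3 (log2 fold change −0.41, adjusted p = 0.194, and 2.89e-08 in the blocked fit). Pcna, the sliding clamp, was at 148 and 125 CPM at day 5, against 197 and 175 CPM at day 3 (adjusted p = 0.219, and 1.63e-09 in the blocked fit). The G1 regulators were mixed, with 2 of 17 higher and 6 lower in the blocked fit. Ccnd2, cyclin D2, was higher in the blocked fit, with 604 and 570 CPM at day 5, against 511 and 455 CPM at day 3. Cdk4, its kinase partner, was lower in the blocked fit, with 280 and 319 CPM at day 5, against 319 and 386 CPM at day 3 (adjusted p = 0.491 and 0.647 without the block, and 5.7e-05 and 0.000216 with it).

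**Figure D3:**
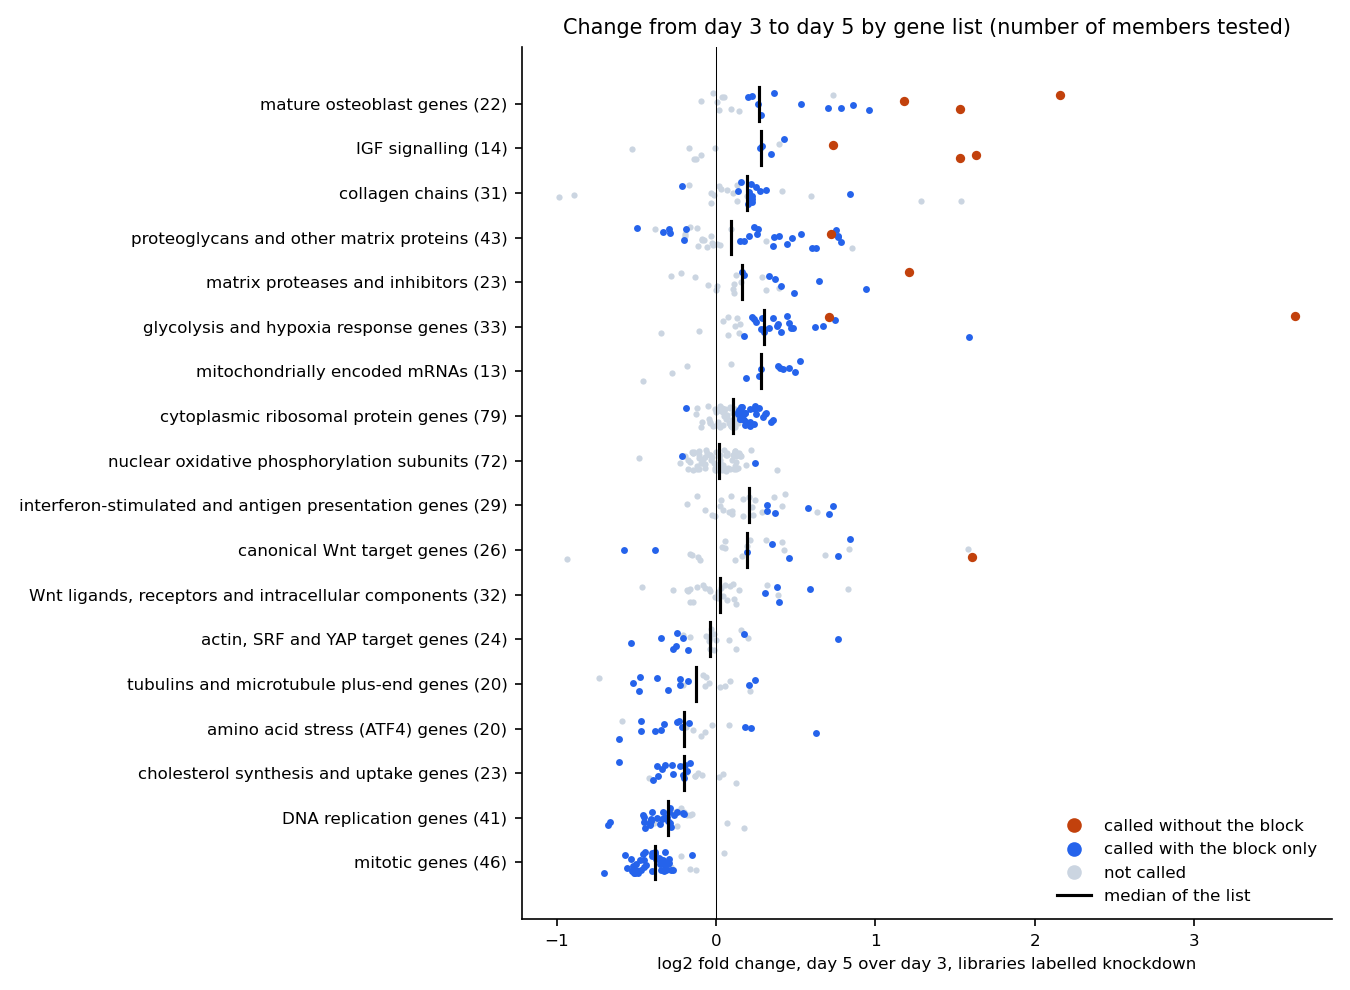
Log2 fold changes of day 5 over day 3 for the tested members of 18 gene lists (1 point per gene, number tested in brackets, black bar at the median). Orange points were called without the block, blue ones with the block only; the mitotic genes have a median of −0.38 and 41 of 46 blue points, and the rightmost point is Car9 at 3.64.

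The promoters of the lists that were lower are known to carry CCAAT boxes, in mitotic genes TTTGAA elements and, in replication genes, TTTGGCGC sites for E2F factors. CCAAT on either strand was in 75.6% of 41 windows of the mitotic genes, 56.4% of 39 windows of the replication genes and 80% of 20 windows of the cholesterol genes described next, against 33.8% of all windows. TTTGAA was in 34.1% of the mitotic windows, against 16% of all, and TTTGGCGC in 7.69% of the replication windows, against 0.417% of all. In the replication and cholesterol windows TTTGAA was in 10.3% and 5%, below its share of all windows. Of the genes that the naming rule gave for these lists, 4 are shown whose windows end before the annotated gene, with the matches in capitals, 5′ to 3′ on the gene's strand. The windows are chr19:37376132-37376381 (plus strand, Kif11), chr2:69206214-69206463 (minus strand, Spc25), chr1:128359706-128359955 (minus strand, Mcm6) and chr5:114444019-114444268 (plus strand, Mvk).
Kif11: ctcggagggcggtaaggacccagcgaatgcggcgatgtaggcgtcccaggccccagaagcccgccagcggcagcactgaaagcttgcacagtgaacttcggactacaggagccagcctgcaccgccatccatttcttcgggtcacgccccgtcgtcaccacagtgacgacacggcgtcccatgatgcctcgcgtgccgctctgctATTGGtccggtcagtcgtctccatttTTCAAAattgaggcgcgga
Spc25: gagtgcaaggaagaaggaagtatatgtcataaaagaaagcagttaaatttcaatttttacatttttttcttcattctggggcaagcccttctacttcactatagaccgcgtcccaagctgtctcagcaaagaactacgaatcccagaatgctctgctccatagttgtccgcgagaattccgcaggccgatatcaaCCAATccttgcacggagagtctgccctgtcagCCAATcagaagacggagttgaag
Mcm6: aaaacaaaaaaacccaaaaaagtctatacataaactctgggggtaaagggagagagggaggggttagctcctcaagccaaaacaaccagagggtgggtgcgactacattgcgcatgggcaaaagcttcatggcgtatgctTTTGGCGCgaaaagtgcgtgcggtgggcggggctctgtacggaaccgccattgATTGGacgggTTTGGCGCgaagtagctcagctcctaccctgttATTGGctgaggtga
Mvk: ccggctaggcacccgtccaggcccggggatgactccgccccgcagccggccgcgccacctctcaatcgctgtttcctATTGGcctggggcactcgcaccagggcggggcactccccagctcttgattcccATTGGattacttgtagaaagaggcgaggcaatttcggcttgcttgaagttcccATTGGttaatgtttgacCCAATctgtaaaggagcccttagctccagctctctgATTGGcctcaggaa
Kif11 holds 1 CCAAT and 1 TTTGAA match, both on the reverse strand, Spc25 holds 2 CCAAT matches, Mcm6 holds 2 CCAAT and 2 TTTGGCGC matches, and Mvk holds 5 CCAAT matches.

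Sterol and amino acid stress genes were lower in the blocked fit as well. Of 23 genes of cholesterol synthesis and uptake, 0 rose or fell without the block, and 0 were higher and 14 lower in the blocked fit, with a median log2 fold change of −0.20 (5 to 7 lower without each library in turn). Mvk, mevalonate kinase, was at 41.4 and 36.9 CPM at day 5, against 55.6 and 62.9 CPM at day 3 (log2 fold change −0.61, SE 0.11, adjusted p = 0.107, and 1.12e-08 in the blocked fit). The list summed to 2215 and 2171 CPM at day 5, against 2478 and 2492 CPM at day 3, a small step beside the 3851 and 3924 CPM of day 0. Of 13 genes of fatty acid synthesis 5 were lower in the blocked fit, among them Scd1, a desaturase, with 152 and 145 CPM at day 5, against 179 and 180 CPM at day 3. Of 20 targets of ATF4, the transcription factor of amino acid shortage, 3 were higher and 10 lower in the blocked fit (median −0.20). Mthfd2, a mitochondrial folate enzyme, was at 52.2 and 52.5 CPM at day 5, against 74.9 and 83.6 CPM at day 3 (log2 fold change −0.61, adjusted p = 0.0813, and 4.11e-10 in the blocked fit). Atf4 itself was at 229 and 234 CPM at day 5, against 251 and 264 CPM at day 3. Of 22 genes of the unfolded protein response 4 were lower in the blocked fit (18.2%), and of 22 NRF2 and glutathione genes 1 was (4.55%), against 6.39% of all genes.

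Of the 13 mRNAs encoded by the mitochondrial genome, 0 rose or fell without the block, and 9 were higher and 0 lower in the blocked fit, with a median log2 fold change of 0.28 (5 to 9 higher and up to 2 lower without each library in turn). mt-Nd4, a subunit of complex I, was at 2532 and 2357 CPM at day 5, against 1937 and 1432 CPM at day 3 (log2 fold change 0.53, SE 0.15, adjusted p = 0.29, and 2.03e-08 in the blocked fit). The list summed to 43800 and 45840 CPM at day 5, against 37190 and 35400 CPM at day 3. Of 72 nuclear subunits of oxidative phosphorylation, 1 was higher and 1 lower in the blocked fit, with a median of 0.02. Of 79 cytoplasmic ribosomal protein genes 28 were higher and 1 lower in the blocked fit, by little (median 0.11), and 5 to 26 were higher and up to 4 lower without each library in turn, with 5 higher without day 5 replicate 2 and 10 without day 3 replicate 2. The blocked fit of 13 libraries had 18 higher. Their share of all counts was 6.21% and 6.03% at day 5, against 5.89% and 5.75% at day 3.

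Of 26 canonical Wnt targets tested, Tnfrsf19 rose, and 6 were higher (23.1%) and 2 lower (7.69%) in the blocked fit, against 5.77% and 6.39% of all genes, with a median log2 fold change of 0.20. Axin2, a feedback target of beta-catenin, was at 12.2 and 12.8 CPM at day 5, against 11.4 and 10.2 CPM at day 3 (log2 fold change 0.20, SE 0.17, adjusted p = 0.795, and 0.508 in the blocked fit). Lef1, a partner of beta-catenin on DNA, was at 2.93 and 3.15 CPM at day 5, against 2.21 and 1.48 CPM at day 3 (adjusted p = 0.61, and 0.203 in the blocked fit), and Tcf7, another, lay below the count minimum. Ctnnb1, beta-catenin, was at 673 and 596 CPM at day 5, against 628 and 593 CPM at day 3, and the days overlapped (log2 fold change 0.04, SE 0.11, adjusted p = 0.951). Of 32 Wnt ligands, receptors and intracellular components, 4 were higher (12.5%) and 0 lower in the blocked fit, with a median of 0.02. Wisp2, a secreted matricellular protein, was at 20.8 and 25.2 CPM at day 5, against 11.6 and 15.3 CPM at day 3 (adjusted p = 0.194, and 9.08e-08 in the blocked fit). Tnfrsf11b, osteoprotegerin, which blocks osteoclast formation, was at 99.2 and 104 CPM at day 5, against 73.0 and 73.1 CPM at day 3 (adjusted p = 0.128, and 1.57e-07 in the blocked fit).

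Among the other signalling lists, FGF signalling had 1 rise (Spry1) and 5 of 20 higher in the blocked fit (25%, against 5.77% of all genes). Fgfr1, a receptor, was at 377 and 381 CPM at day 5, against 269 and 302 CPM at day 3 (log2 fold change 0.40, adjusted p = 0.236, and 2.19e-09 in the blocked fit). BMP and TGF-beta signalling was divided, with 4 of 38 higher (10.5%) and 5 lower (13.2%) in the blocked fit, against 5.77% and 6.39% of all genes. Id2, a target of BMP signalling, was at 39.0 and 29.0 CPM at day 5, against 51.8 and 49.3 CPM at day 3 (log2 fold change −0.58, adjusted p = 0.237, and 2.6e-07 in the blocked fit). Of 10 Notch genes and 11 chemokines and cytokines none was called in either fit. Of 25 immediate early genes 5 were higher in the blocked fit, among them Klf4, with 88.4 and 90.1 CPM at day 5, against 69.0 and 68.7 CPM at day 3. Of 29 interferon-stimulated and antigen presentation genes 6 were higher in the blocked fit. H2-K1, a class I histocompatibility chain, was at 88.7 and 108 CPM at day 5, against 55.7 and 63.9 CPM at day 3 (log2 fold change 0.71, adjusted p = 0.0998, and 1.59e-12 in the blocked fit).

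Genes of the cytoskeleton, to which MACF1 binds, were lower in part in the blocked fit. Of 20 tubulins and microtubule plus-end genes, 2 were higher and 8 lower in the blocked fit, with a median log2 fold change of −0.13 (5 to 6 lower without each library in turn). Tubb5, a beta-tubulin, was at 766 and 849 CPM at day 5, against 1075 and 1218 CPM at day 3 (log2 fold change −0.52, SE 0.12, adjusted p = 0.207, and 9.1e-15 in the blocked fit). Tuba1b, an alpha-tubulin, showed the replicate numbers again. It was at 236 CPM in replicate 1 and 150 CPM in replicate 2 at day 5, against 318 CPM in replicate 1 and 219 CPM in replicate 2 at day 3 (log2 fold change −0.49, adjusted p = 0.64, and 8.16e-12 in the blocked fit). Of 24 actin, SRF and YAP targets, 2 were higher and 7 lower in the blocked fit. Acta2, smooth muscle actin, was at 899 and 999 CPM at day 5, against 1280 and 1444 CPM at day 3 (log2 fold change −0.53, adjusted p = 0.193, and 2.05e-15 in the blocked fit). Ctgf, a YAP target, went against the list, with 15.8 and 16.5 CPM at day 5, against 8.10 and 10.8 CPM at day 3 (adjusted p = 0.206, and 9.42e-05 in the blocked fit).

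**Figure D4:**
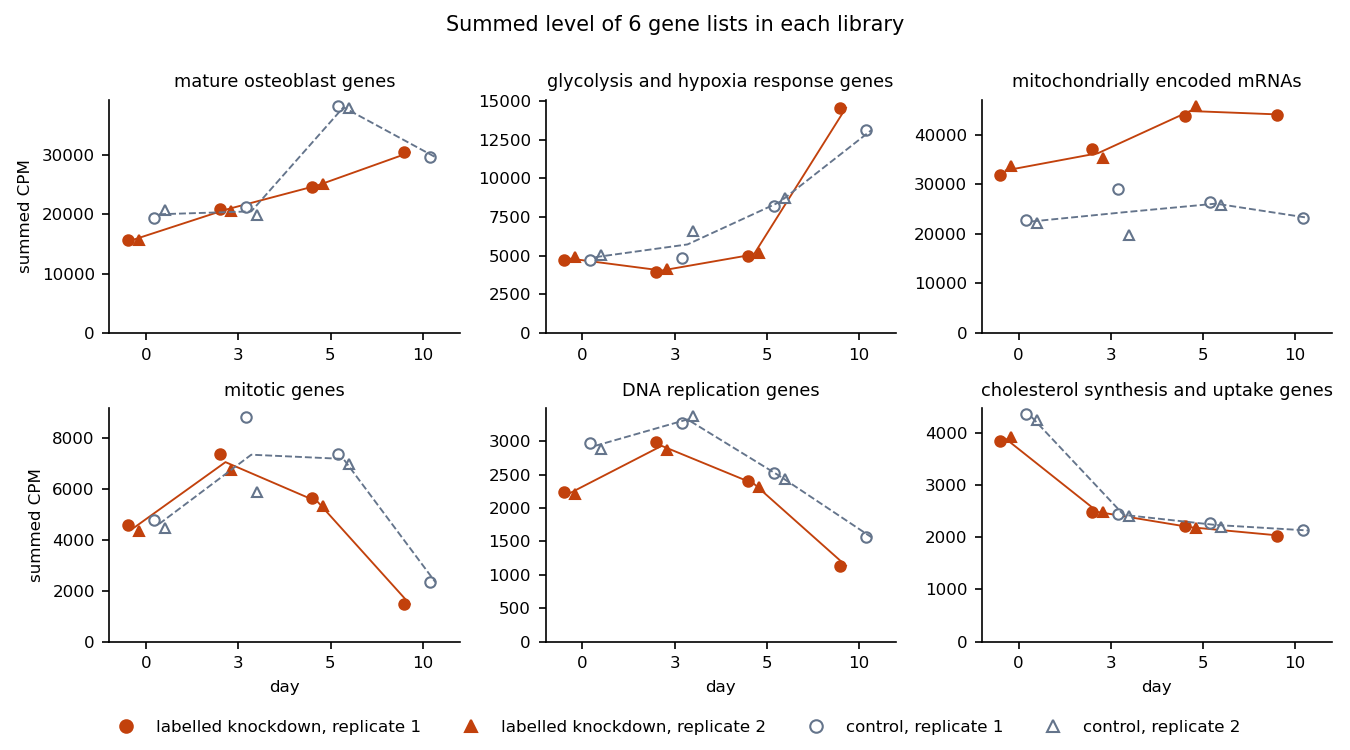
Summed CPM of 6 gene lists in each library against the day (days not drawn to scale), for libraries labelled knockdown (filled, solid line) and control (open, dashed line); lines join means, circles are replicate 1 and triangles replicate 2. The mitotic genes in libraries labelled knockdown stood at 5648 and 5350 CPM at day 5, against 7363 and 6756 CPM at day 3, and the mature osteoblast genes of control at 38240 and 37870 CPM at day 5.

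The step from day 3 to day 5 was then compared with the same step in control. Without control day 3 replicate 2, control day 3 is 1 library. Calls and control steps from the 13 libraries, here and below, rest on that unreplicated day and are uncertain. In the 14 libraries, 14 genes had a step that differed between the conditions (0.11% of 12781 tested), all 14 with a lower step in the libraries labelled knockdown. In edgeR at an unadjusted p under 0.05 there were 491 with a higher and 341 with a lower step, DESeq2 called 27 and 59, and limma on RPKM 0 and 38. Without control day 3 replicate 2, 136 genes were called (1.06%), 46 higher (0.36%) and 90 lower (0.704%). The blocked fit of those 13 libraries called 975 genes (7.63%), 407 higher and 568 lower (3.18% and 4.44%), and all 14 genes were called there with the same sign. The count was 3 to 7 without any 1 of the 4 libraries labelled knockdown or the 2 of control day 5, and 5906 without control day 3 replicate 1, where the library that stands apart is the only control library of day 3.

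The genes with a lower step mostly changed less in the libraries labelled knockdown and were much higher at day 5 in control. Not all were level in the libraries labelled knockdown. Wif1 was higher at day 5 there in the blocked fit (log2 fold change 0.84, adjusted p = 0.15, and 3.74e-08 in the blocked fit). Col2a1, the collagen of cartilage, was at 159 and 176 CPM at day 5 and 185 and 200 CPM at day 3 in libraries labelled knockdown, against 248 and 264 CPM at day 5 and 55.3 and 46.8 CPM at day 3 in control (difference of steps −2.53 log2 units, SE 0.23, adjusted p = 0.00264). Tgfbi, a matrix protein induced by TGF-beta, was at 55.8 and 55.2 CPM at day 5 and 64.2 and 70.5 CPM at day 3 in libraries labelled knockdown, against 126 and 136 CPM at day 5 and 26.8 and 31.4 CPM at day 3 in control (difference −2.46, SE 0.23, adjusted p = 0.00264). Col11a2, a chain of the minor cartilage fibril collagen, was at 1.76 and 1.81 CPM at day 5 and 1.26 and 1.06 CPM at day 3 in libraries labelled knockdown, against 231 and 206 CPM at day 5 and 8.62 and 7.60 CPM at day 3 in control (difference −4.14, SE 0.38, adjusted p = 0.00264). Wif1, a secreted Wnt inhibitor, was at 28.1 and 33.3 CPM at day 5 and 16.04 and 17.9 CPM at day 3 in libraries labelled knockdown, against 82.1 and 86.7 CPM at day 5 and 4.05 and 3.72 CPM at day 3 in control (difference −3.58, SE 0.37, adjusted p = 0.00576). In each of these genes the control libraries of day 3 lay below those labelled knockdown or, for Col11a2, above them, so the steps also differ in where they start. Dmp1 belonged to the 14 as well (difference −2.61, adjusted p = 0.0184), and the others were Anxa8, Prss35, Sgms2, Megf10, Krt14, Dtx4, Cpe, Gfra1 and F13a1. Anxa8, a membrane-binding annexin, was at 21.9 and 25.2 CPM at day 5 and 23.8 and 26.7 CPM at day 3 in libraries labelled knockdown, against 68.6 and 67.3 CPM at day 5 and 10.4 and 9.98 CPM at day 3 in control (difference −2.84, SE 0.23, adjusted p = 0.00264). Spp1 did not pass in the 14 libraries (difference −2.18, adjusted p = 0.0626) and passed without control day 3 replicate 2 (−1.88, adjusted p = 0.000879).

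No higher step passed in the 14 libraries without the block. Some passed without control day 3 replicate 2, which leaves 1 control library of day 3. They include Tnfrsf19, Akap12 and the 3 genes described after them. For Tnfrsf19 the difference was 1.27 log2 units (14 libraries, adjusted p = 0.116), and 1.37 without that library. Its control levels were 378 and 365 CPM at day 5, against 314 and 272 CPM at day 3. For Akap12 the difference was 0.83 (14 libraries, adjusted p = 0.683), and 1.46 without that library. Sned1, a matrix glycoprotein, was at 741 and 848 CPM at day 5 and 602 and 623 CPM at day 3 in libraries labelled knockdown, against 88.6 and 107 CPM at day 5 and 267 and 162 CPM at day 3 in control (difference 1.51, adjusted p = 0.268, and 1.82 with adjusted p = 0.000879 without that library). Npnt was at 932 and 1021 CPM at day 5 and 1500 and 1329 CPM at day 3 in control, opposite to its step in the libraries labelled knockdown given above (difference 1.17, adjusted p = 0.198, and 1.25 with adjusted p = 0.00331 without that library). Ogn, osteoglycin, had a difference of 1.47 (adjusted p = 0.347, and 1.66 with adjusted p = 0.0403 without that library).

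By list, the glycolysis and hypoxia response genes had a smaller step in the libraries labelled knockdown. Their median step was 0.30, against 0.78 in control without day 3 replicate 2, and the blocked fit of 13 libraries called 0 of 33 with a higher and 18 with a lower step, against 3.18% and 4.44% of all genes. The mature osteoblast genes had a median step of 0.27, against 0.62 in control, with 4 higher and 9 lower steps of 23 tested. The mitotic genes had a median step of −0.38, against −0.25 in control, with 0 higher and 7 lower of 46, and the replication genes −0.30, against −0.42, with none called. The mitochondrially encoded mRNAs had a median step of 0.28, against −0.28 in control, with 8 higher and 0 lower of 13. With control day 3 replicate 2 included, the control medians were 0.79 for the glycolysis and hypoxia response genes, 0.80 for the mature osteoblast genes, 0.03 for the mitotic genes, where the direction turns, −0.52 for the replication genes and −0.19 for the mitochondrially encoded mRNAs. Of the 22 genes that rose, 13 were also called higher between these days in control without day 3 replicate 2, where 2.67% of the 12453 genes were, and 0.899% were lower. Akap12 and Cp went the other way in control without day 3 replicate 2, where Akap12 had a step of −0.60 (adjusted p = 0.0198) and Cp of −0.44 (adjusted p = 0.0284), against 0.86 and 0.66 in the libraries labelled knockdown. With that library the control steps were 0.04 for Akap12 (adjusted p = 0.966) and 0.01 for Cp (adjusted p = 0.984).

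**Figure D5:**
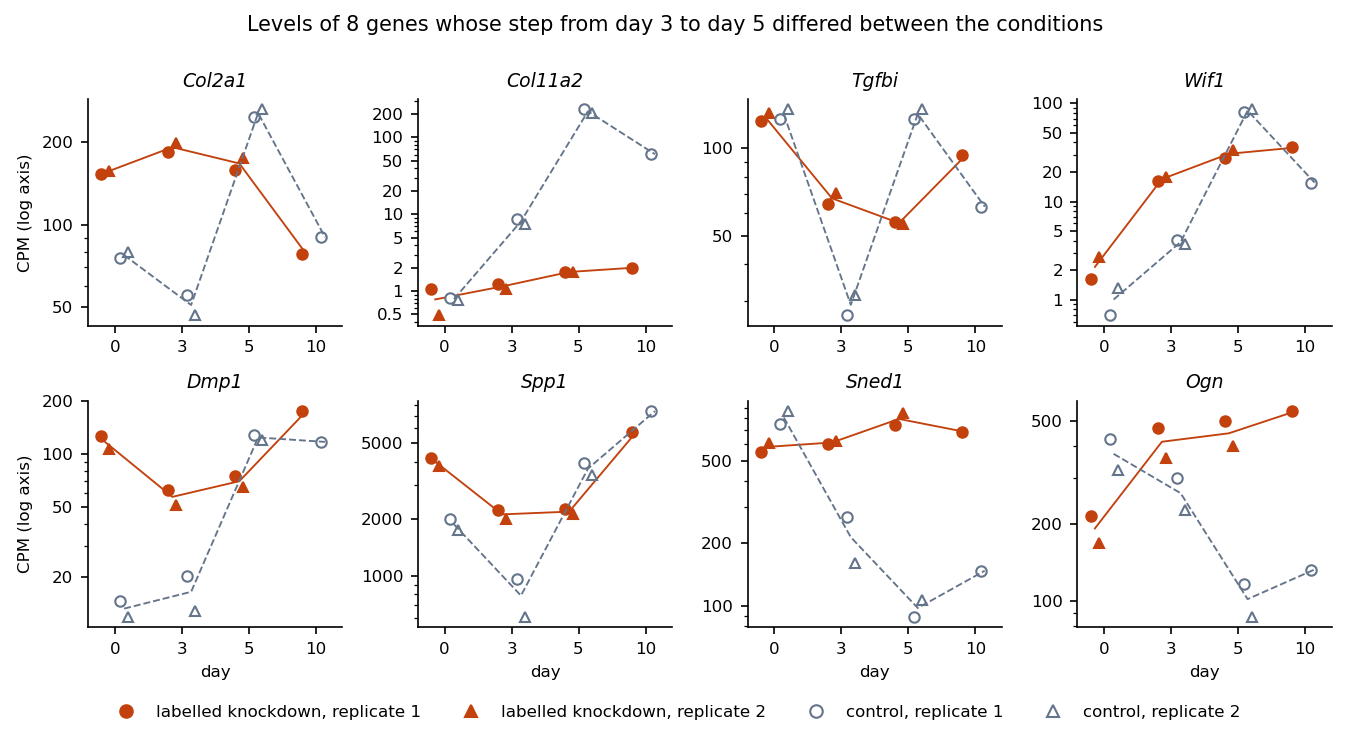
CPM of 8 genes on log axes against the day (days not drawn to scale) in libraries labelled knockdown (filled, solid line) and control (open, dashed line). Col2a1, Col11a2, Tgfbi, Wif1 and Dmp1 differed in their step between the conditions in all 14 libraries, and Spp1, Sned1 and Ogn without control day 3 replicate 2. The knockdown values of Col2a1, Col11a2 and Tgfbi change little between day 3 and day 5 beside those of control. Those of Wif1 are higher at day 5, by less than in control.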

How the data were processed

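Polyadenylated RNA was sequenced from directional libraries, per the labels' protocols. The submitters' processing notes name bcl2fastq, TopHat2, edgeR and the mouse build GRCm38. The authors deposited a table of read counts per gene for 24346 genes and a table of RPKM, reads scaled to gene length and library depth, for 24340. How reads were counted and whether strand was used is not given in the sources used here, so overlapping and near-identical genes are uncertain. GENCODE positions were matched for 24181 genes.

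Counts were fitted with edgeR 4.0.16 (TMM, quasi-likelihood test, Benjamini-Hochberg adjustment, threshold 0.05, R 4.3.3). Day 5 was compared with day 3 in the 7 libraries labelled knockdown, on genes that reached 10 counts in 2 or more of the 4 compared. The difference from control used all 14 libraries. DESeq2 1.42.0 and limma 3.58.1 on log2(RPKM + 1) were alternatives, with other filters, scalings, libraries and left-out replicates. The replicate number was taken as pairing the libraries because the deviations of same-numbered libraries from their day's mean correlated at 0.427, 0.387 and 0.448 between days 0 and 3, 0 and 5, and 3 and 5 of the libraries labelled knockdown, all above 0.1. Between the libraries labelled knockdown and control days 0 and 5 these correlations were 0.3075 to 0.4009, and between control days 0 and 5 the value was 0.3452. With control day 3 they were 0.0198 to 0.154, and no label says what the number marks.

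Named genes were 15 fixed names, up to 12 rises with at least 5 CPM, the 5 most abundant called genes with an absolute log2 fold change of at least 0.5, up to 4 called genes with the smallest p per list with at least 3 called, and 8 genes of the difference from control. The same rule was applied to the blocked fit after its calls were seen, and Cp, Lbh, Mgarp, Krt14, Dtx4, Cpe, Gfra1 and F13a1, which fall outside it, were named after their values were seen. Some genes that the rule or the calls gave are not reported here. The members and the 44 gene lists, 6 of them markers, were chosen with earlier results of these data known. Promoter windows come from RefSeq (GRCm38.p6).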

Additional observations from a re-analysis of the deposited data

Results flagged for a closer look

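The step from day 3 to day 5 differed between the conditions, by the edgeR test of the difference itself in 14 libraries, for 9 genes of the naming rule, all with a lower step in the libraries labelled knockdown. In log2 units the difference of steps was −2.53 for Col2a1, −4.14 for Col11a2, −2.46 for Tgfbi, −3.58 for Wif1, −2.61 for Dmp1 and −2.84 for Anxa8, whose levels are given above. It was −3.77 for Prss35, a secreted serine protease-like protein (adjusted p = 0.00576), −2.65 for Sgms2, a sphingomyelin synthase (adjusted p = 0.0132), and −4.71 for Megf10, a receptor for cell engulfment (adjusted p = 0.0132). Over 15 settings the size varied most for Megf10 (−6.006 to −1.678) and Prss35 (−4.607 to −2.242). Sgms2 ran from −3.015 to −2.395 and Col2a1 from −2.659 to −2.371.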

How the results depend on the processing

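The 22 genes called between day 5 and day 3 became 1515 with the replicate block (719 higher, 796 lower), 1366 with the block in 13 libraries, and 881, 658, 1124 and 719 with the block and without day 3 replicate 1, day 3 replicate 2, day 5 replicate 1 and day 5 replicate 2, where all but the first setting were chosen after seeing the data. Without the block, leaving out 1 of the 4 libraries gave 5 to 8 genes. The count was 11 from the 4 libraries alone, 2 from all 14 libraries, 69 from 13 libraries without control day 3 replicate 2, 199 with no filter on low counts, 76 with DESeq2 and 5 with limma on RPKM. The 14 genes whose step differed from control became 18 with the replicate block, 975 with the block in 13 libraries, 86 with DESeq2, 197 with no filter and 38 with limma on RPKM, and ranged over 3 to 5906 with 1 library left out. The cause was not tested.

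Named genes with log2 fold changes near 0 changed sign, and so did Rpl37, whose log2 fold change was 0.27. Rpl37 turned only without the block. With the block it kept its sign, at 0.22 to 0.31 without 1 library. With limma on RPKM, Macf1 was at −0.029, Sp7 at −0.022, Spp1 at −0.019 and Ctnnb1 at −0.013. Without 1 library the values ranged over −0.026 to 0.079 for Macf1, −0.14 to 0.21 for Sp7, −0.033 to 0.12 for Spp1, −0.20 to 0.030 for Phex, −0.040 to 0.13 for Ctnnb1, −0.31 to 0.81 for Rpl37, −0.20 to 0.33 for Megf10 and −0.073 to 0.30 for Ogn. With the replicate block, signs turned without day 3 replicate 1 (Sp7 −0.074, Phex 0.0059), without day 3 replicate 2 (Macf1 −0.017, Megf10 −0.16), without day 5 replicate 1 (Sp7 −0.060, Ctnnb1 −0.026) and without day 5 replicate 2 (Macf1 −0.011, Megf10 −0.42). With 2 libraries a day, the median standard error of 0.149 limits what could be called.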

Other observations

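A few genes separated the replicate numbers rather than the days. Of 9900 genes with a mean of at least 5 CPM, 4 were more than 2-fold higher in replicate 2 than in replicate 1 at both days and 3 were more than 2-fold higher in replicate 1, chosen for that difference. Cd40, a costimulatory receptor, was at 2.14 CPM in replicate 1 and 16.1 CPM in replicate 2 at day 5, against 2.21 CPM in replicate 1 and 17.2 CPM in replicate 2 at day 3. Epx, eosinophil peroxidase, was at 2.56 CPM in replicate 1 and 12.8 CPM in replicate 2 at day 5, against 1.41 CPM in replicate 1 and 16.1 CPM in replicate 2 at day 3. In control the replicate 2 libraries of days 0, 3 and 5 held 16.8, 120.2 and 17.8 CPM of Cd40 and 14.6, 117.4 and 15.6 CPM of Epx, so the library that stands apart, control day 3 replicate 2, had the highest level of both. The replicate 1 libraries of control were at 2.72, 3.67 and 3.91 CPM of Cd40 and 2.53, 2.51 and 3.24 CPM of Epx. The genes higher in replicate 1 were S100a4, mt-Atp6 and mt-Co3. mt-Co3 was at 30.7 CPM in replicate 1 and 7.70 CPM in replicate 2 at day 5, against 35.1 CPM in replicate 1 and 11.6 CPM in replicate 2 at day 3. In control mt-Co3 went the other way at day 0, with 1.39 CPM in replicate 1 and 7.59 CPM in replicate 2, and at day 3, with 2.77 CPM in replicate 1 and 31.4 CPM in replicate 2, and the same way at day 5, with 13.7 CPM in replicate 1 and 7.26 CPM in replicate 2. S100a4 and mt-Atp6 were also higher in replicate 2 of control at days 0 and 3. What the numbers stand for was not tested.

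Of the 22 genes that rose, 14 stood higher in the day 10 library than in both libraries of day 5 and 6 lower than both, in 1 library with no replicate.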
